A study of Mus musculus with 8 samples.

Results

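The genes described here encode 8 proteins of the PI3K, Akt and mTOR pathway: the catalytic subunits Pik3cd, Pik3ca and Pik3cb, the regulatory subunit Pik3r1, the kinases Akt1 and Akt2, and Mtor with its partner Rptor. They were chosen by name, with earlier results of these data known, and are 8 of the 21951 protein-coding genes of the mouse annotation GENCODE M21. For each gene, every peak of H3K27ac (histone H3 acetylated at lysine 27, a mark found at active promoters and enhancers) over the gene body or within 20 kb of it was taken, which gave 24 of the 28924 peaks deposited for proliferating cells and 27 of the 27965 peaks deposited for differentiating cells. The mark was mapped by chromatin immunoprecipitation and sequencing (ChIP-seq, Millipore antibody) in Oli-neu, an oligodendrocyte-lineage cell line from mouse that the labels describe as embryonic derived oligodendrocyte progenitors of strain C57BL/6. The proliferating library came from cells expanded with bFGF at 10 ng/ml and Pdgf-BB at 1 ng/ml, and the differentiating library, labelled as a control, from cells kept for 1 day without growth factors and with 1 μM of the Erb inhibitor PD174265; thyroid hormone was in the expansion medium. The time of 1 day is that of the labels; the study's culture methods give a longer differentiation for Oli-neu cells, and which applied to this library is not settled here. Removal of growth factors, the inhibitor and time in culture differed together between the 2 libraries and cannot be told apart. Each state has 1 library, so the spread between replicates is unknown and no difference between the states was tested. The ATAC-seq samples of the series, from cells with siCtr or siPadi2, were not analysed here.

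Class I PI3K enzymes consist of a p110 catalytic and a p85-type regulatory subunit and, downstream of growth factor receptors, turn a membrane lipid into the signal that recruits Akt. Akt phosphorylates many proteins, among them FoxO transcription factors and the TSC complex, and relief of the TSC brake lets mTOR complex 1, which contains mTOR and Raptor, promote protein and lipid synthesis. In the oligodendrocyte lineage this pathway is known for its part in differentiation and in the growth of myelin.

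As a check of the label, peaks were looked up in the promoter regions of marker genes, from 3000 bp before to 100 bp after the transcription start site (TSS). Of 8 markers of the oligodendrocyte lineage, 3 had a promoter peak in both lists (Olig1, Olig2 and Sox10). Nkx2-2, Cspg4, Pdgfra and Cnp had none, although Cspg4 and Cnp had a peak within 1000 bp of the TSS in both lists. None of 4 microglial markers had a promoter peak. Of 4 neuronal markers 1 had such a peak, Syt1 in the differentiating list, and of 4 astrocyte markers 1 had it, Slc1a3 in the proliferating list. A peak marks the histone and not the amount of mRNA. Each peak carries 3 values from the authors' peak calling, a fold enrichment over the local background, a −log10 p and a −log10 q. These were compared only as ranks within their own list: a rank of 90% means that 90% of the peaks of the same list had a lower fold enrichment. Read counts are not part of the lists, which leaves the depth of each peak unknown, and no input library is named.

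Differentiating Oli-neu cells had an H3K27ac peak at the promoter of 5 of the 8 genes and proliferating cells at the promoter of 2. In the same region 23.7% of all protein-coding genes had a proliferating peak and 27.7% had a differentiating peak. Pik3cb and Pik3r1 had a promoter peak in both states. Pik3ca, Akt1 and Rptor had one in the differentiating list alone, as did 10.1% of all genes, and 0 of the 8 had one in the proliferating list alone, against 6.13% of all genes. Pik3cd, Akt2 and Mtor had none in this region.

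The definition of a promoter mattered for Akt2 and for Mtor. With 1000 bp on both sides of the TSS, Akt2 was added in both states, which made 3 genes in proliferating cells (26.9% of all genes) and 6 in differentiating cells (31.1%). The same 3 and 6 genes had a peak when the TSS of every annotated transcript was used (31.3% and 35.3% of all genes). A region that began 6000 bp upstream added Mtor in differentiating cells. Pik3cd had no promoter peak in either state by any of these definitions.

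**Figure D1:**
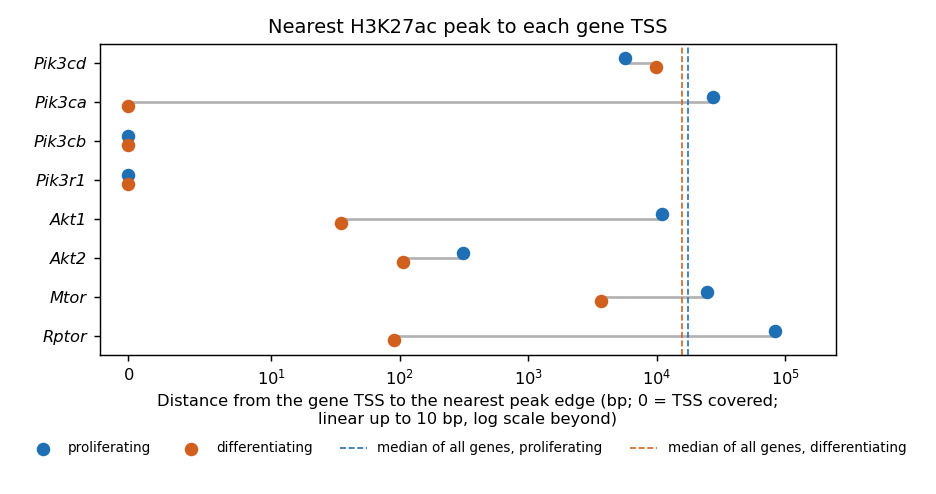
Distance in bp from the TSS of each gene to the nearest edge of an H3K27ac peak, with 1 point for the proliferating (blue) and 1 for the differentiating library (orange), on a scale that is linear up to 10 bp and logarithmic beyond; dashed lines mark the medians of all protein-coding genes. The distance was shorter in differentiating cells for 5 genes, 0 in both states for Pik3cb and Pik3r1, and longer in differentiating cells for Pik3cd alone.

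The distance from the TSS to the nearest peak describes the same pattern without a fixed region. It was 0 bp, the TSS being covered, for Pik3cb and Pik3r1 in both states and for Pik3ca in differentiating cells. For Pik3ca the nearest proliferating peak lay 27404 bp away, and for Rptor the distance was 82697 bp in proliferating and 91 bp in differentiating cells. It was 10920 bp and 35 bp for Akt1, 24445 bp and 3699 bp for Mtor, and 313 bp and 107 bp for Akt2. Pik3cd was the exception, with 5629 bp in proliferating and 9877 bp in differentiating cells. Over all 21951 genes the median distance was 17426 bp in proliferating and 15682 bp in differentiating cells, and 16.0% and 20.4% of TSSs were covered.

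To show what lay under these peaks, stretches of the mouse genome (GRCm38, the build of the lists) without annotated exons are printed in the direction of transcription of the gene, with each CG dinucleotide in capitals. The set compares peaks at a TSS with peaks away from one, and peaks of both lists with peaks of the differentiating list alone.
Pik3ca promoter, differentiating peak, chr3:32397371-32397670, plus strand: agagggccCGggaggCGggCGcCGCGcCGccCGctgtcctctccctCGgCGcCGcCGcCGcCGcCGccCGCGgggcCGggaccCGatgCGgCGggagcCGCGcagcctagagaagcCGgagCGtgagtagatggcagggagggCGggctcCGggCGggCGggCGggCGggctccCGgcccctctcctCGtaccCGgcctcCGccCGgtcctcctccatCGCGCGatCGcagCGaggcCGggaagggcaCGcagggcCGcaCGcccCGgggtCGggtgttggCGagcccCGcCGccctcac
Akt1 after its TSS, differentiating peak, chr12:112674491-112674721, minus strand: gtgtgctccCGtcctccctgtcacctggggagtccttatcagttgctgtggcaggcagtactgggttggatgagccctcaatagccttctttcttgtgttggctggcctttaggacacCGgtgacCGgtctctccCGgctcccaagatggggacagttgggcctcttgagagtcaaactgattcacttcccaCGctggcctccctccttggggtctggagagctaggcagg
Pik3cb promoter, both lists, chr9:99140622-99140868, minus strand: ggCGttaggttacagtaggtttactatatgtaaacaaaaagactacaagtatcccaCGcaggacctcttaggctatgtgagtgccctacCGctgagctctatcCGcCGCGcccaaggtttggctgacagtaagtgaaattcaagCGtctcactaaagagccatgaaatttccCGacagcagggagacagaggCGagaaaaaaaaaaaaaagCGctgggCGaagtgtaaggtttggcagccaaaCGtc
Pik3r1 promoter, both lists, chr13:101768218-101768517, minus strand: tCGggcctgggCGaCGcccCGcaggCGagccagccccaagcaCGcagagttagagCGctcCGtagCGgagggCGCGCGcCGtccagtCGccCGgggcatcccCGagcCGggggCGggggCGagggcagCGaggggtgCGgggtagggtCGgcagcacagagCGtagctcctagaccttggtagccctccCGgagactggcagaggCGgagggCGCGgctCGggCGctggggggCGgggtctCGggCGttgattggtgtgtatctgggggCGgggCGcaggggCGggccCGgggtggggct
Akt2 after its TSS, both lists, chr7:27591893-27592192, plus strand: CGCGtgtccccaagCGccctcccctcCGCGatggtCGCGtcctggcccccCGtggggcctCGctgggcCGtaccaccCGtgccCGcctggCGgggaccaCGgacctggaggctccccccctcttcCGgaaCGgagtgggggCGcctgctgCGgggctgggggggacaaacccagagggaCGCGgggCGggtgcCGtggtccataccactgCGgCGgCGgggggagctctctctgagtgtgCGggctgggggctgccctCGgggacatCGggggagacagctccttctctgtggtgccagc
Pik3ca intron, both lists, chr3:32429229-32429478, plus strand: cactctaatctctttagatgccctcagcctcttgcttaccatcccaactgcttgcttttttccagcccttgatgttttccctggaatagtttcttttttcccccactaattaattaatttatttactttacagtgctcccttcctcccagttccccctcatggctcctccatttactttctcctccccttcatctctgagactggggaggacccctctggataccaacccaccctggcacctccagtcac
Pik3r1 upstream, both lists, chr13:101777890-101778189, minus strand: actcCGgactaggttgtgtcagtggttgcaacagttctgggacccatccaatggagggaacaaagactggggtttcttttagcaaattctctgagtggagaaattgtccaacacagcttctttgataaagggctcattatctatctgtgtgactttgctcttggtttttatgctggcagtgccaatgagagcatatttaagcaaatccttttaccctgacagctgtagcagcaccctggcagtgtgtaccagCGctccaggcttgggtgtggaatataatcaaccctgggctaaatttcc
Rptor intron, both lists, chr11:119709240-119709539, plus strand: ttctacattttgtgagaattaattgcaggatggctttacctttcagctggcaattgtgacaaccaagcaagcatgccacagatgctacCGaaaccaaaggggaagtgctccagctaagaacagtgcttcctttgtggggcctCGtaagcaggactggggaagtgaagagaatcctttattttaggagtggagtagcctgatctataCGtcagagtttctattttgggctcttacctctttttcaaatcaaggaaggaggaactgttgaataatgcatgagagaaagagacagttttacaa
The Pik3ca promoter stretch held 49 CG dinucleotides in 300 bases and the Pik3r1 promoter stretch 36 in 300, whereas the Pik3ca intron stretch held 0 in 250, the distal Pik3r1 stretch 2 in 300 and the Rptor intron stretch 3 in 300. The stretch of Akt1, although next to the TSS, held 5 in 231 bases.

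**Figure D2:**
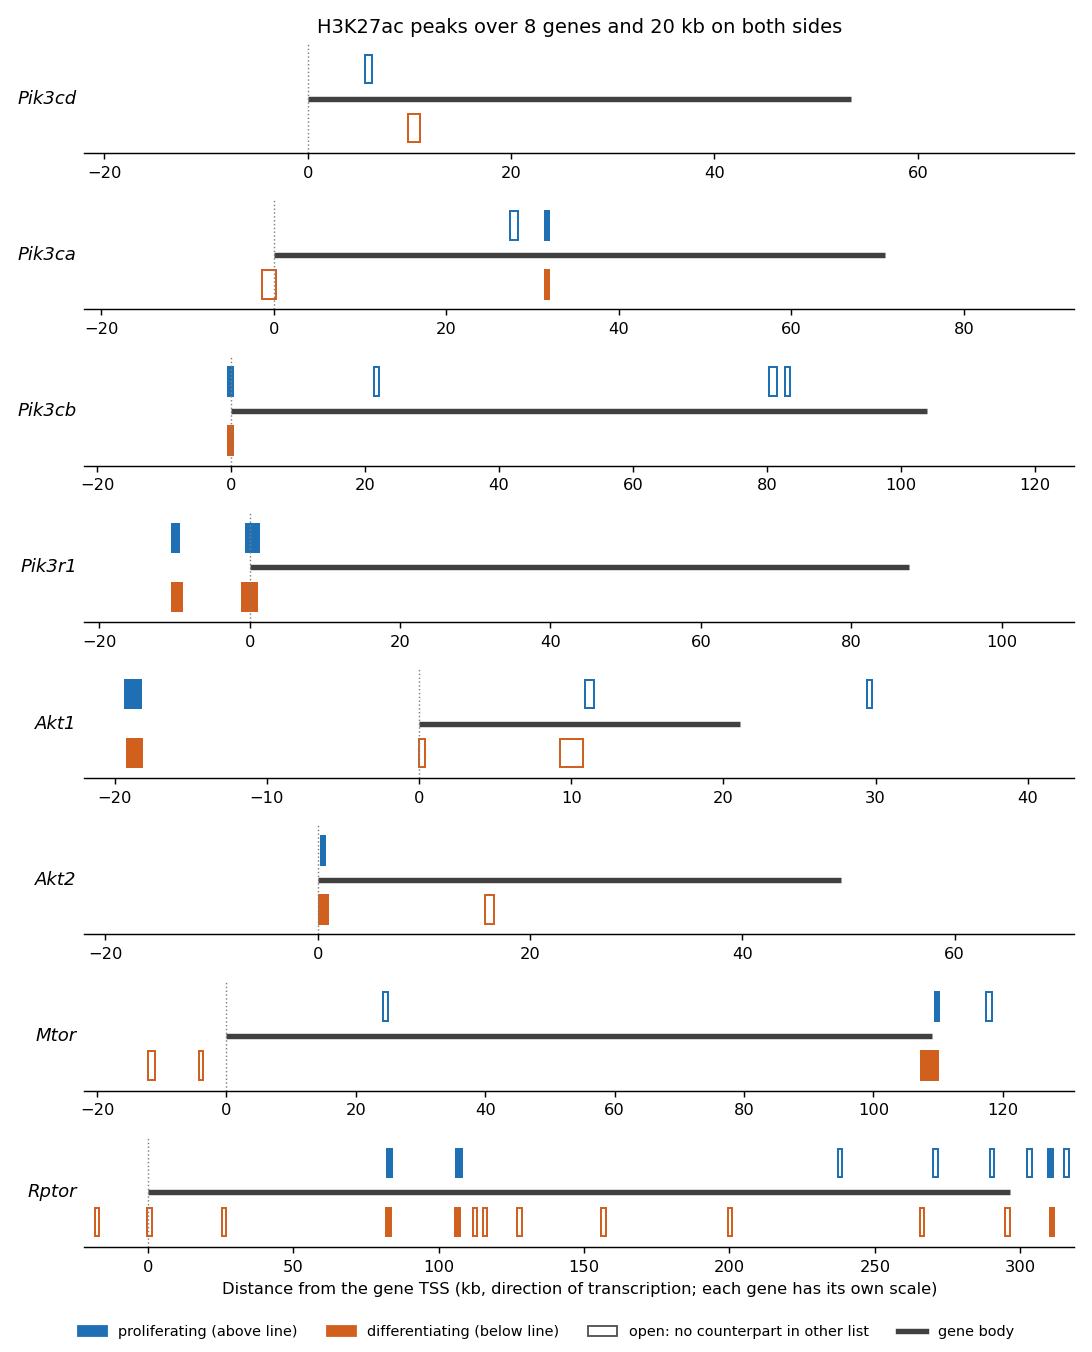
Every H3K27ac peak over the 8 genes and 20 kb on both sides, by distance from the gene TSS in kb in the direction of transcription, with proliferating peaks (blue) above and differentiating peaks (orange) below the gene body (dark line); each gene has its own scale, and peaks narrower than the line width are drawn wider to be seen. Filled boxes are the peaks that overlap in both lists, 10 in each. Over the whole lists 29.2% of proliferating and 30.1% of differentiating peaks have a counterpart. Only Pik3cd, with 1 peak in each list, has open boxes alone.

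Among the catalytic subunits, Pik3cd (p110δ, best known from leukocytes) had no H3K27ac peak within 5 kb of its gene TSS in either state. The gene lies on the minus strand of chromosome 4 (149649168 to 149702571). Its only proliferating peak, chr4:149696218-149696942, was 725 bp wide and lay in an intron 5629 to 6353 bp after the gene TSS, with a fold enrichment of 3.32 and a rank of 48.5%. Its only differentiating peak, chr4:149691579-149692694, was 1116 bp wide and lay 9877 to 10992 bp after the TSS, also in an intron, with a fold enrichment of 3.23 and a rank of 59.9%. The peaks did not overlap but were separated by 3524 bp. Pik3cd has 14 annotated transcripts with 13 different start sites, and measured from the nearest of these the peaks began 1610 bp and 5858 bp downstream.

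Pik3ca (p110α, chromosome 3, 32397671 to 32468486, plus strand) had 2 peaks in each list. In differentiating cells a peak of 1645 bp covered the TSS, from −1397 to 247 bp relative to it (chr3:32396274-32397918), with a fold enrichment of 3.59 and a rank of 81.3%. No proliferating peak overlapped it, and the nearest proliferating peak was 27157 bp away. The other differentiating peak and 1 proliferating peak shared 250 bp in an intron about 31 kb after the TSS, the stretch printed above. This intronic site held the highest fold enrichment of all member peaks in both lists: 5.09 in proliferating cells (chr3:32429229-32429491, 263 bp, −log10 q 5.18, rank 98.2%) and 4.88 in differentiating cells (chr3:32429133-32429478, 346 bp, −log10 q 5.65, rank 98.4%). It lies 6660 bp and 6673 bp upstream of the nearest annotated transcript start. Of the shared stretch, 51.2% is marked as repeat in the genome sequence, and no read counts are at hand to tell how uniquely reads map there, so the part of repeats in this value was not tested. A further proliferating peak, chr3:32425075-32426001, was in an intron as well and ranked at 15.2%.

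Pik3cb (p110β, chromosome 9, 99036654 to 99140621, minus strand) carried a peak over the TSS in both states. In proliferating cells this was 263 bp wide, the smallest width in the list, reached from −247 to 15 bp relative to the TSS and had a fold enrichment of 3.05 and a rank of 19.6%. In differentiating cells it was 738 bp wide, reached from −500 to 237 bp and had a fold enrichment of 4.32 and a rank of 95.7%. The proliferating peak lay wholly inside the differentiating peak. The same promoter thus stood in the lower part of one list and near the top of the other, with −log10 q of 1.42 and 4.25. Away from the TSS, the proliferating list had 3 further peaks in the gene body, 364 to 1204 bp wide with ranks of 10.9% to 45.6%, and the differentiating list had none.

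**Figure D3:**
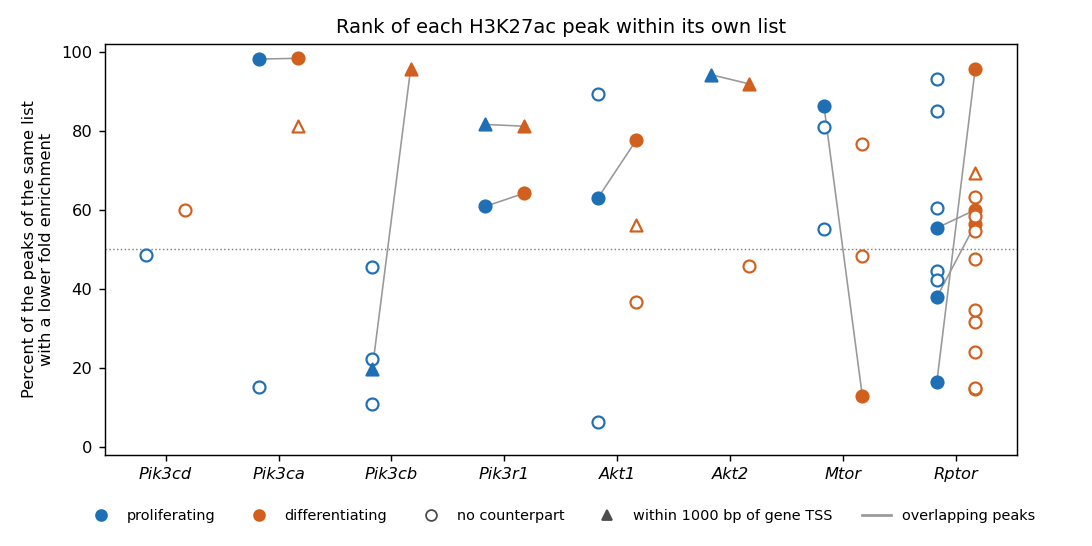
Rank of every member peak by fold enrichment within its own list (percent of the peaks of the list with a lower value), for proliferating (blue) and differentiating cells (orange); triangles lie within 1000 bp of the gene TSS, open symbols have no counterpart and lines join overlapping peaks. The intronic Pik3ca site and the Akt2 site stand above 90% in both lists, and the line of Pik3cb joins 19.6% and 95.7%.

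Pik3r1 encodes p85α, the regulatory subunit that holds and restrains p110, and was the gene whose peaks were most alike in both lists: each of its 2 peaks had a counterpart. The gene lies on the minus strand of chromosome 13 (101680563 to 101768217). The promoter peak was 1745 bp wide in proliferating cells, from −483 to 1261 bp relative to the TSS, with a fold enrichment of 3.81 and a rank of 81.6%. In differentiating cells it was 1913 bp wide, from −953 to 959 bp, with a fold enrichment of 3.58 and a rank of 81.2%. Both peaks shared 1443 bp. A distal peak lay about 9 to 10 kb upstream of the TSS, outside any annotated part of the gene. It was 1047 bp wide with a fold enrichment of 3.45 and a rank of 60.8% in proliferating cells (chr13:101777533-101778579), and 1302 bp wide with 3.28 and 64.1% in differentiating cells (chr13:101777246-101778547). No other protein-coding TSS was nearer to this distal peak than that of Pik3r1. The promoter peaks lay in the promoter region of 2 of the 7 annotated transcripts in each state, and the other 5 transcripts, which start inside the gene, had no peak there.

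Akt1 and Akt2 encode closely related kinases that carry the PI3K signal, and differed in where their peaks lay. Akt1 (chromosome 12, 112653821 to 112674884, minus strand) had no proliferating peak within 10 kb of the TSS. In differentiating cells a peak of 359 bp lay 35 to 393 bp after the TSS (chr12:112674491-112674849), with a fold enrichment of 3.19 and a rank of 56.1%, in the middle of the list. It lay in the promoter region of 5 of the 9 annotated transcripts. In the body of the gene, an intronic proliferating peak (558 bp, fold enrichment 2.78, rank 6.33%, q 0.0506) and an intronic differentiating peak (1502 bp, 3.01, 36.7%) came within 150 bp of each other without sharing a base. About 18 to 19 kb upstream, a peak was present in both states with 941 bp in common, with a fold enrichment of 3.47 and a rank of 63.1% in proliferating and 3.51 and 77.7% in differentiating cells. The protein-coding TSS nearest to that peak was not of Akt1 but of Zbtb42, at 14325 bp and 14278 bp. In both lists the peak covered the TSS of Gm30238, a gene not annotated as protein-coding. A proliferating peak of 263 bp beyond the end of the gene (rank 89.2%) lay 473 bp from the TSS of Siva1.

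Akt2 (chromosome 7, 27591552 to 27640826, plus strand) had a strong peak just after its TSS in both states. It lay 313 to 653 bp after the TSS in proliferating cells (chr7:27591865-27592205, 341 bp, fold enrichment 4.38, rank 94.2%) and 107 to 965 bp after it in differentiating cells (chr7:27591659-27592517, 859 bp, 3.98, 91.9%). The differentiating peak contained the whole of the proliferating peak. Since both began more than 100 bp after the gene TSS, neither counted in the main promoter region, but 3 and 7 of the 14 annotated transcripts had them or the next peak in theirs. That next peak, of differentiating cells alone, covered an internal transcript start, 15747 to 16636 bp after the gene TSS, with a fold enrichment of 3.09 and a rank of 45.8%.

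Mtor (chromosome 4, 148448611 to 148557683, plus strand) encodes the kinase shared by both mTOR complexes, and none of its peaks covered its own TSS. In proliferating cells the peak nearest to the TSS was a 263 bp intronic peak 24445 bp after it, with a fold enrichment of 3.39 and a rank of 55.0%. In differentiating cells the nearest peak lay upstream, from −4179 to −3699 bp relative to the TSS (481 bp, fold enrichment 3.49, rank 76.8%). At the other end, the peaks present in both states covered the TSS of Exosc10, a gene of the RNA exosome. They were 495 bp wide with a rank of 86.4% in proliferating cells and 2632 bp wide, the widest of all member peaks, with a rank of 12.9% in differentiating cells. Only the differentiating peak extended into the body of Mtor. Of the 6 peaks counted for Mtor, the TSS of Mtor was the nearest protein-coding TSS for 1, the intronic proliferating peak.

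Rptor encodes Raptor, the scaffold of mTOR complex 1, and is the longest of the 8 genes (chromosome 11, 119602905 to 119899576, plus strand, 296672 bp). It had 8 proliferating and 13 differentiating peaks. In differentiating cells a peak of 910 bp lay 91 to 1000 bp after the gene TSS (chr11:119602996-119603905), with a fold enrichment of 3.35 and a rank of 69.4%. It thus just reached the main promoter region, which ends 100 bp after the TSS, whereas the Akt2 peaks, which began at 107 bp and 313 bp, did not. It lay in the promoter region of 5 of the 12 annotated transcripts. The proliferating list had no peak within 82 kb of the TSS. The lists shared 3 sites: intronic ones at 82697 to 83129 bp and 106064 to 106905 bp after the TSS, and a further one beyond the end of the gene at the TSS of Chmp6, which encodes a protein of the ESCRT machinery. The intronic sites ranked at 37.9% and 55.4% in proliferating and at 56.3% and 60.0% in differentiating cells, near the middle of both lists. The Chmp6 site ranked at 16.3% in proliferating cells (fold enrichment 3.00) and at 95.6% in differentiating cells (4.31). The remaining 5 proliferating and 10 differentiating peaks had no counterpart. Over the whole lists, 29.2% of proliferating and 30.1% of differentiating peaks had one.

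Over the 8 genes, 10 of the 24 proliferating peaks had a counterpart in the other list, 41.7% (95% exact Clopper-Pearson interval 22.1% to 63.4%), against 29.2% of all proliferating peaks. Of the 27 differentiating peaks 10 did, 37.0% (19.4% to 57.6%), against 30.1% of all differentiating peaks. The intervals, which cover counting error only, include the values of the whole lists. The 10 shared sites were 3 at the TSS of a member (Pik3cb, Pik3r1 and Akt2), 2 at the TSS of a coding neighbour (Exosc10 and Chmp6), 3 in introns (Pik3ca and Rptor) and 2 upstream (Pik3r1 and Akt1). The upstream Akt1 site covered the TSS of Gm30238. Peaks with a counterpart had a median rank of 62.0% in proliferating and 79.5% in differentiating cells, and peaks without had 47.1% and 48.3%. The same medians over all peaks are not given here, so whether the contrast is particular to these genes was not tested. The median rank of all member peaks was 55.2% and 58.6%, where 50% is the middle of a list by definition, and 3 proliferating and 4 differentiating peaks stood at 90% or above. Introns alone held 12 peaks in each list. For 12 peaks of the proliferating list and 9 of the differentiating list the nearest protein-coding TSS was that of a gene other than the member, so that these peaks cannot be assigned to the member by position.

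Every one of the 8 genes had at least 1 peak over its body or within 20 kb in each list, as did 62.7% of all genes for proliferating and 62.7% for differentiating cells. The windows of the members, 61.1 to 337 kb, were longer than the median of all genes, 57.4 kb, so the count per length is the fairer value. Akt1, with the shortest window (61.1 kb), had the most peaks per 100 kb, 4.91 in each list, more than 89.3% and 89.1% of all genes. Its proliferating count includes the peaks nearest to the TSSs of Siva1 and Zbtb42, and its differentiating count the peak nearest to that of Zbtb42. Rptor followed in differentiating cells with 3.86, more than 80.2% of genes, and had 2.38 in proliferating cells (69.1%). Both of its counts include peaks nearest to the TSS of Chmp6, inside Rptor and beyond its end. Rptor lies on chromosome 11, which held 1.65 and 1.56 peaks per 100 kb, the most of the 8 genes' chromosomes, and the part of this in its count was not tested. Pik3cb had 2.78 in proliferating and 0.695 in differentiating cells, and was the only member with more in proliferating cells. Its proliferating count includes peaks nearest to the TSS of Gm1123. The median over all genes was 1.49 and 1.51 per 100 kb. Pik3cd, with 1.07 in each list, was below it, and Pik3r1, with 1.57 in each, was close to it while its chromosome 13 held 0.416 and 0.426.

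**Figure D4:**
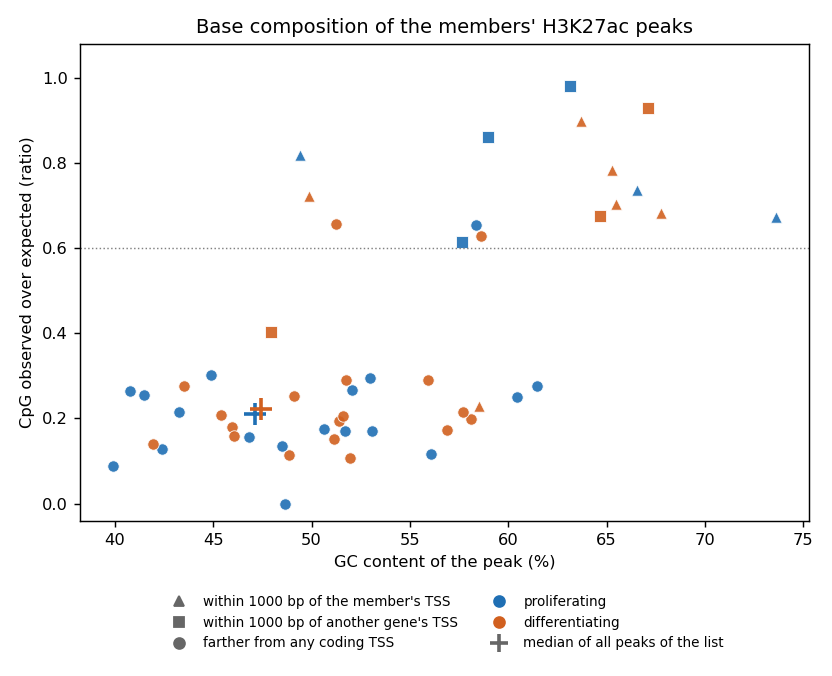
GC content in percent against the ratio of observed to expected CG dinucleotides for the 24 proliferating (blue) and 27 differentiating (orange) member peaks; triangles lie within 1000 bp of the TSS of the member, squares within 1000 bp of that of another coding gene, circles farther away, and crosses give the medians of all peaks. Except for Akt1, triangles lie above the dotted line at 0.6, and circles, apart from 3, lie below it.

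Base composition, which played no part in the choice of peaks, separated the peaks by place. Of the peaks within 1000 bp of the TSS of a member, 3 of 3 in proliferating and 5 of 6 in differentiating cells had a ratio of observed to expected CG dinucleotides of at least 0.6, the exception being the Akt1 peak at 0.231. Of the peaks more than 1000 bp from any coding TSS, 1 of 18 and 2 of 18 did, in each list including the Akt1 peak over the TSS of Gm30238. Among all member peaks these were 7 of 24 (29.2%) and 9 of 27 (33.3%), and among all peaks of the lists 16.5% and 19.9%. The median GC content of member peaks was 51.9% and 51.8%, against 47.1% and 47.5% for the whole lists.

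The promoters themselves were also compared, from 250 bases before to 50 after the gene TSS. The ratio was at least 0.6 for 6 of the 8 genes, at 0.641 for Akt2, 0.788 for Pik3cb, 0.867 for Pik3r1, 0.873 for Mtor, 1.02 for Pik3ca and 1.02 for Rptor. It was 0.324 for Pik3cd and 0.391 for Akt1. Of all genes 44.4% reached 0.6, and of these 41.4% had a promoter peak in the proliferating and 48.8% in the differentiating list. Among the genes below 0.6 the shares were 9.63% and 10.8%. Mtor and Akt2 thus belonged to the class in which peaks were more common but had none in the main promoter region. Most genes of that class had none in either list taken alone. Akt1 belonged to the class in which peaks were rarer but had a differentiating peak.

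Short motifs were searched in the same 300 bases of each promoter, on both strands. The forkhead motif GTAAACA, the kind of site that FoxO factors bind, was found in the promoters of Pik3cb and Akt1, and in 3.05% of all promoters. In the Pik3cb stretch printed above it starts at base 30, from −218 to −212 bp relative to the TSS. The CCAAT box (CCAAT) was found in Pik3r1 and Mtor and in 39.0% of all promoters, the SOX motif AACAAT in Mtor and in 10.1%, the ETS motif CCGGAAG in Pik3cd and in 10.8%, and the AP-1 motif TGANTCA in none of the 8 and in 6.91%. In the middle 250 bp of the member peaks, the forkhead motif was in 1 of 24 proliferating and 2 of 27 differentiating peaks, which were those at the TSS of Pik3cb and, in differentiating cells, of Pik3ca. It was in 3.30% and 2.94% of all peaks. The SOX motif was in 4 and 1 member peaks (12.1% and 11.7% of all peaks), the AP-1 motif in 2 and 2 (6.76% and 6.74%), the CCAAT box in 3 and 5 (29.6% and 28.8%) and the ETS motif in 1 and 2 (2.81% and 3.08%). Outside the 300 bases, the printed Akt1 stretch held TGANTCA at base 179 and the printed Akt2 stretch the reverse complement of CCGGAAG at base 122. A match gives the letters in a window and not a bound site.

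**Figure D5:**
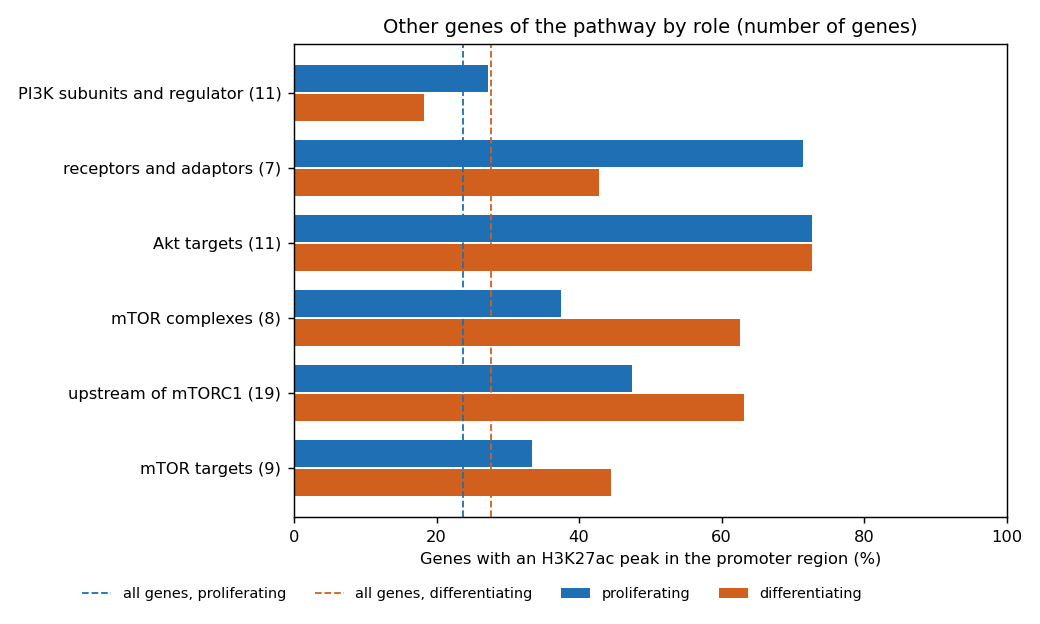
Percent of other genes of the pathway, for 6 roles, whose promoter region held a proliferating (blue) or a differentiating (orange) H3K27ac peak; the number of genes is given after each role, and dashed lines mark the shares of all protein-coding genes, 23.7% and 27.7%. Akt targets had the longest bars in differentiating cells and receptors and adaptors and Akt targets in proliferating cells.

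The surroundings of the 8 genes in the pathway were read from a list of 74 further genes, ordered by role. A promoter peak was present for 33 of the 74 in proliferating cells (44.6%) and for 37 of the 74 in differentiating cells, where all genes had 23.7% and 27.7%. In both lists 28 had one, 5 in the proliferating list alone, 9 in the differentiating list alone and 32 in neither. Among all genes whose promoters had a CG ratio of at least 0.6, the shares were 41.4% and 48.8%. The part of base composition in the values of the 74 genes was not tested. By role, and with no test between roles, the counts were as follows. Of 11 Akt targets 8 had a promoter peak in each list, 7 of them in both, including Gsk3a, Gsk3b, Foxo3, Tsc1 and Akt1s1, which encodes the mTORC1 inhibitor PRAS40. Of 11 other PI3K subunits and regulators 3 and 2 had one. Among the receptors and adaptors, 5 of 7 had a peak in proliferating and 3 in differentiating cells; Erbb2 and Gab1 had it in the proliferating list alone. Among the other genes of the mTOR complexes it was 3 and 5 of 8, with Mlst8 and Prr5 in the differentiating list alone. Among 9 mTOR targets it was 3 and 4.

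Upstream of mTORC1, at the lysosome and in nutrient sensing, 9 of 19 genes had a promoter peak in proliferating and 12 in differentiating cells. The highest rank of the whole list belonged to Flcn, folliculin, a regulator of the Rag GTPases, with a fold enrichment of 6.26 (rank 99.3%) in proliferating and 5.19 (98.9%) in differentiating cells. Telo2, a chaperone factor of mTOR and related kinases, ranked at 89.5% and 98.3%, and Lamtor2, a part of the Ragulator, at 97.1% and 54.6%. Igf1r, the IGF-1 receptor, ranked at 58.9% and 94.3%, Irs1, its adaptor, at 66.6% and 91.8%, and Rictor, the defining subunit of mTOR complex 2, at 74.3% and 94.3%. Akt1s1 ranked at 51.3% and 94.8% and Lamtor1 at 58.1% and 91.0%. Pik3r3, another regulatory subunit, ranked at 88.7% and 91.8%, Pik3c2a, a class II PI3K, at 70.8% and 89.3%, and Rps6, the ribosomal protein phosphorylated downstream of mTORC1, at 89.5% and 91.4%. Rictor thus had a promoter peak in both states, whereas Rptor, its counterpart in mTOR complex 1, had it in the differentiating list alone.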

How the data were processed

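H3K27ac ChIP-seq of Oli-neu cells was analysed from 2 deposited lists of peaks, 1 library per state. The authors mapped reads to GRCm38/mm10 with Bowtie2 2.1.0, kept uniquely mapped reads, removed PCR duplicates with SAMtools, called broad peaks with MACS2 2.0.10 and removed blacklisted regions with bedtools, per the methods and the submitters' processing notes. Each deposited peak carries 3 values in an unlabelled text cell; following the column order of MACS2 broad peaks, they were taken as the fold enrichment, which is a ratio, the −log10 of p and the −log10 of q. A q cutoff of 0.05 is stated, but the deposited lists reach q of 0.0995 and 0.0983. The lists hold 28924 and 27965 peaks and no counts, so depth per peak is unknown, and values were ranked only within a list. Narrow peaks are common: 22.9% and 17.5% have the smallest width, 263 bp and 279 bp.

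Genes and transcripts are from GENCODE M21 on the same build, while the authors used another release. The gene TSS is the 5′ end of the gene, and distances count from it. Any shared base counted as an overlap. Scripts ran in Python 3.11.15 (pandas 2.3.3, numpy 2.4.6, pysam 0.24.0, scipy 1.17.1, matplotlib 3.10.9). The overlap code was tested on simulated data and checked against bedtools 2.31.1. Sequences were read from GRCm38.p6. Without replicates no test between states was run, and shares have 95% exact binomial intervals. The members, gene lists, markers and motifs were chosen with earlier results of these data known. Named genes are the 8 members, the coding gene with the TSS nearest to a member peak, and up to 12 pathway genes with a promoter peak in both lists, by the higher of their ranks. Gsk3a, Gsk3b, Foxo3, Tsc1, Erbb2, Gab1, Mlst8, Prr5 and Gm30238 were named after their values were seen. A few genes of these lists, and what depends on them, are not reported here. Alternatives concerned the flank, the promoter region, the peak threshold, the overlap and the ranking value.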

Additional observations from a re-analysis of the deposited data

How the results depend on the processing

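A count was taken to move where it changed by more than 1.5 times and a share where it left its 95% interval. Of 46 alternative values 35 did not move and 11 did. Median ranks, which are neither, were all counted as not moved. The proliferating median of 55.2% nevertheless fell below the middle of the list over gene bodies alone (47.1%) and by width (46.6%). It was 60.4% with a flank of 50 kb and 51.5% by −log10 q. The differentiating median stayed between 55.9% and 59.2%. With −log10 q of at least 5, which leaves fewer peaks, 1 proliferating peak (the intronic Pik3ca site) and 2 differentiating peaks (that site and the one at Chmp6) were left over the 8 genes, and the members with a promoter peak numbered 0 in proliferating cells, 0 in differentiating cells and 0 in either (3.27%, 4.25% and 5.81% of all genes at this threshold). With fold enrichment at or above the median of the list, which also leaves fewer peaks, there were 13 and 17 peaks, and 1 member had a promoter peak in proliferating cells while 5 had it in differentiating cells (16.8% and 20.4% of all genes). A flank of 50 kb, which is a longer window, gave 43 differentiating peaks. A reciprocal overlap of at least 0.5, a stricter definition, left a counterpart for 20.8% of member peaks in proliferating and 18.5% in differentiating cells, against 16.7% and 17.3% of all peaks under the same definition. A q of at most 0.05 removed 1 member peak from each list and no promoter peak. No paired analysis was possible because ChIP-seq has 1 library per state with nothing to pair; replicate numbers are shared by the siCtr and siPadi2 ATAC-seq samples, not used here.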
